A study of Homo sapiens with 6 samples.

Results

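Genes for the proteins of the mitochondrial ribosome were compared between UBE2S knockdown and control cells of A375, a line established from a human melanoma. They were chosen by name, as all array probe sets whose only gene symbol was MRPL or MRPS followed by digits, with suffix letters allowed. This gave 164 of 49293 probe sets and 74 of 18132 genes, 47 of the large subunit (MRPL) and 27 of the small subunit (MRPS). The knockdown group (3 arrays) was A375 carrying a lentiviral short hairpin RNA against UBE2S, a ubiquitin-conjugating enzyme that works with the anaphase-promoting complex. The control group (3 arrays) was A375 cells, and the sources used here do not say what vector, if any, they received. The labels call the samples biological replicates but do not name separate cultures, a clone or a pool.

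Mitochondria keep a ribosome of their own, which translates the few proteins encoded in mitochondrial DNA, all of them parts of the oxidative phosphorylation complexes. Its RNA is mitochondrial, but its proteins are encoded in the nucleus, made in the cytosol and imported. Many have a counterpart in the bacterial ribosome, and the others arose in the mitochondrial lineage. Symbols do not always follow the structure, since MRPS30 and MRPS18A sit in the large subunit of the mammalian particle.

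The deposited values are log2 expression centred probe set by probe set, with the median over the 6 arrays at 0. They hold differences between arrays and no level, and in a single probe set groups that separate lie on either side of 0. Means over several probe sets of a gene need not do so. In bulk samples like these, fewer cells of a kind and less RNA per cell cannot be told apart. Marker levels could not be read, and only a coarse signal class was taken from the rounding of the values. S100B, a marker of the melanocyte lineage, had 3 probe sets in the high class and SOX10 had 1. No probe set was in the high class for MITF, PMEL, MLANA or TYR, and DCT had none on its own. PTPRC (6 probe sets, blood) and EPCAM (3, epithelium) lay in the low class throughout, and PECAM1 and COL1A1 in the low and middle classes. UBE2S stood at -1.13, -1.05 and -1.01 in knockdown arrays, against 1.06, 1.01 and 1.01 in control arrays, which left 23.5% of the control signal (log2 change -2.09, SE 0.043, adjusted p = 9.23e-08 in limma). Hybridization spike-in transcripts were 0.17 higher in knockdown arrays, poly-A spike-ins 0.098 higher and the 3' to 5' difference of the ACTB control probe sets 0.19 higher, all on the log2 scale and without overlap. The same difference for GAPDH was 0.023 higher, with overlap. The part of RNA quality in the results was not tested.

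The promoters of these genes are given first, for letters that many of them share. RefSeq promoter windows (GRCh38.p14, 250 bases before to 50 after the start of the gene) were found for 67 of the 74 members, all but MRPL2, MRPL10, MRPL13, MRPL15, MRPL21, MRPL35 and MRPS28. The letters CCGGAAG, bound by ETS factors such as GABPA, occurred on either strand in 28 of 67 members (41.8%), against 10.7% of all 27305 promoters and 14.6% of the 14425 promoters of measured genes. AAGATGGC, bound by YY1, occurred in 19 (28.4%), against 3.03% of all promoters and 4.04% of those of measured genes. Both motifs were present in 8 members. The E-box CACGTG, bound by MYC with MAX, was found in 6 members (8.96%), against 7.43% of all promoters and 8.82% of those of measured genes, a share close to that of the members. The NRF1 motif was found in 8 (11.9%), against 6.28% of all promoters and 8.92% of those of measured genes. All were searched on both strands, no test was made of these shares, and a match is a description of letters and not a binding site.

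The windows of MRPL3, MRPS22, MRPS12, MRPL33 and MRPS10 are printed. Among the 67 members with a window, MRPL3 and MRPS22 have the largest falls with an ETS match of the MRPL and MRPS symbols. MRPL33 and MRPS10 have the largest such rises. MRPS12 was picked as the largest fall with both motifs among the members named by rule, as described below. MRPL38 (-0.33) and MRPL47 (-0.25), outside that choice, have both motifs and fell further than MRPS12 (-0.23). Capitals mark matches to CCGGAAG or AAGATGGC on either strand. On GRCh38.p14 the windows lie at chr3:131502922-131503221 (minus strand), chr3:139343744-139344043 (plus strand), chr19:38930694-38930993 (plus strand), chr2:27771469-27771768 (plus strand) and chr6:42217812-42218111 (minus strand), in that order.
MRPL3: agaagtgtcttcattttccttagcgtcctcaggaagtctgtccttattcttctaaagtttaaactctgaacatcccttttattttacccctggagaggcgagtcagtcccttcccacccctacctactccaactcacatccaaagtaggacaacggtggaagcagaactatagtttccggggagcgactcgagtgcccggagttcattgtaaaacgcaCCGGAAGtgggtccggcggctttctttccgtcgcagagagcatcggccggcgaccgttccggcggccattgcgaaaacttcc
MRPS22: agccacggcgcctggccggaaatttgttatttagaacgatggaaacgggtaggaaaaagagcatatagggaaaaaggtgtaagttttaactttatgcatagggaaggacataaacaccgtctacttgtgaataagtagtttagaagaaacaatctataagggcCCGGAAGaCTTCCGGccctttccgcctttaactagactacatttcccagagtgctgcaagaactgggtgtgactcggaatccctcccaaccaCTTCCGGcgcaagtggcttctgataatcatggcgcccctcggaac
MRPS12: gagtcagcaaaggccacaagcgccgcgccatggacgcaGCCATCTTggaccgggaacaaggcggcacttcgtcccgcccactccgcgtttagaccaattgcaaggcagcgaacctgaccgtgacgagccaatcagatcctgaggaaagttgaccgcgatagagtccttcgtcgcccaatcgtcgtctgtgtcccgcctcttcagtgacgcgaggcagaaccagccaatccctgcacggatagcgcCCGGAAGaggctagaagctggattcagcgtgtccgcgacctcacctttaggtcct
MRPL33: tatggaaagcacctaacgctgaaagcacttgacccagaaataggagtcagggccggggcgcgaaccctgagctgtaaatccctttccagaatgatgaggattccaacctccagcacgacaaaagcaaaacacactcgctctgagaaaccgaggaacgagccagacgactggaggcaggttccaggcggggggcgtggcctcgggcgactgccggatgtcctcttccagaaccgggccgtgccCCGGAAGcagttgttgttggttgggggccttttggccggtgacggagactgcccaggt
MRPS10: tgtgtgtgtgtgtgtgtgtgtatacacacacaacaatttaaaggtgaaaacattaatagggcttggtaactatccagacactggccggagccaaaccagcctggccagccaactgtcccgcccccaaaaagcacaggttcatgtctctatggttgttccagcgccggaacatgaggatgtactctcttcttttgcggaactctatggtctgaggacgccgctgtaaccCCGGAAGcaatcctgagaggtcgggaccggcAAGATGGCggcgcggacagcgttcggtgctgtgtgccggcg
Counted from the start of the gene, the ETS match begins at -32 in MRPL3, at -5 in MRPS12, at -8 in MRPL33 and at -22 in MRPS10. MRPS22 has 3 such matches, at -87, -79 and 6. The YY1 match begins at -212 in MRPS12 and at 10 in MRPS10. That of MRPS12 lies past the start of SARS2, a gene on the other strand that starts 181 bases upstream of MRPS12. Members with the ETS letters were found among falls and rises alike. Of the 28 with them 16 fell and 4 rose (median log2 change -0.15), and of the 39 without them 19 fell and 3 rose (median -0.15). Of the 19 with the YY1 letters 9 fell and 1 rose (median -0.099), and of the 48 without them 26 fell and 6 rose (median -0.15).

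Transcripts of mitochondrial ribosomal proteins fell in UBE2S knockdown cells more often than they rose, by small amounts. Of the 74 genes 38 fell and 7 rose at an adjusted p under 0.05 in limma, fitted over all 18132 genes, of which 18.6% fell, 21.4% rose and 40.1% did either. The median log2 change was -0.14, against -0.0038 over all genes, and 60 members lay below 0, where 51.1% of all genes did. No member changed 2-fold. Requiring a change of at least 1.2-fold as well left 19 falls and 3 rises, where 9.32% of all genes fell and 12.1% rose that far. All 3 knockdown arrays lay below all 3 control arrays in 50 members and above them in 8, against 23.9% and 26.2% of all genes. The median over the members was -0.085, -0.077 and -0.058 in knockdown arrays 1, 2 and 3, against 0.076, 0.067 and 0.058 in control arrays 1, 2 and 3.

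These counts depend on how the arrays are scaled, and changes are stated relative to the array-wide level of the deposited values. Scaled to the hybridization spike-ins, the median of all genes was -0.17, 50.7% of all genes fell and 9.73% rose, and 65 members fell and 3 rose. With the poly-A spike-ins the median of all genes was -0.10, 34.7% fell and 13.7% rose, and 57 members fell and 3 rose. The brightest probe set was in the high class for 73 of 74 members, the exception being MRPL2. Of the member probe sets 120 lay in the high class, 39 in the middle and 5 in the low. Background control probe sets were found in each class too, 4 in the high, 6 in the middle and 13 in the low. Within the high class 56 of 120 member probe sets fell and 12 rose, against 28.3% and 26.7% of all 13537.

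**Figure D1:**
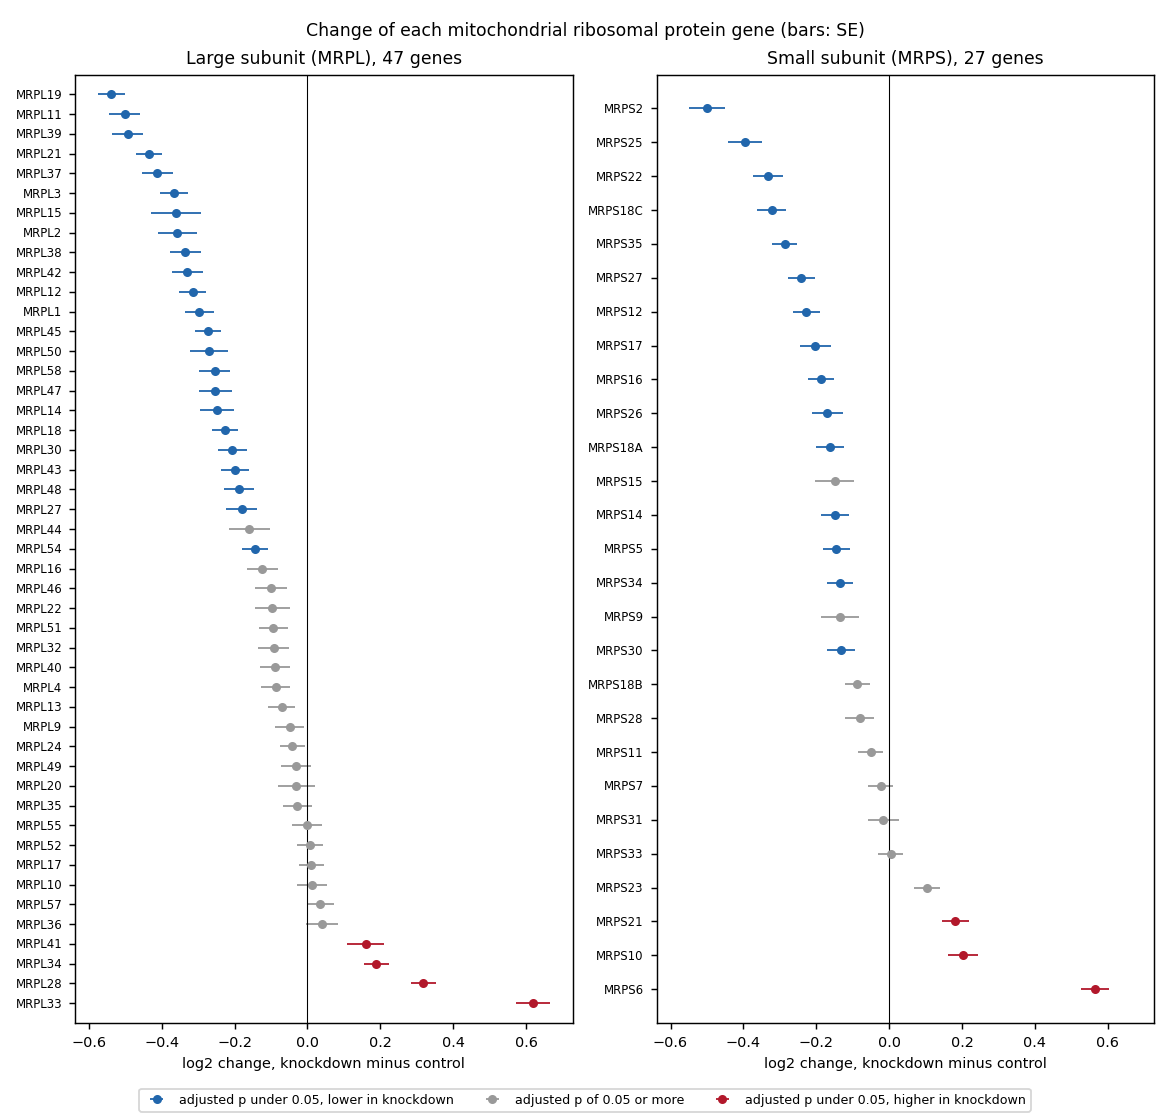
Log2 change (knockdown minus control) of the 47 MRPL genes and the 27 MRPS genes, with moderated standard errors as bars and colours for an adjusted p under 0.05. Most genes lie left of 0, from MRPL19 at -0.54 and MRPS2 at -0.50, with MRPL33 at 0.62 and MRPS6 at 0.56 at the other end.

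At an adjusted p under 0.05 alone, the subunits gave similar shares. With a change of at least 1.2-fold as well, a smaller share of the small subunit fell than of the large one. The difference between the subunits was not tested. In the large subunit 23 of 47 genes fell, 4 rose and 20 did not pass the test, with a median of -0.14. In the small subunit 15 of 27 fell, 3 rose and 9 did not pass, with a median of -0.15. Of 45 genes for proteins with a bacterial counterpart 21 fell and 6 rose (median -0.13), and of 29 for proteins specific to mitochondria 17 fell and 1 rose, MRPL41 (median -0.16). With the hybridization spike-ins these counts were 39 and 3 for the first class and 26 and 0 for the second. Under that scaling 50.7% of all genes fell and 9.73% rose. The difference between the classes was not tested.

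MRPL19 had the largest fall of the large subunit. Its bacterial counterpart lies where the subunits meet. It stood at -0.26, -0.27 and -0.24 in knockdown arrays, against 0.31, 0.31 and 0.23 in control arrays, a log2 change of -0.54 (SE 0.038, adjusted p = 1.72e-05 in limma), or 31.1% lower. The gap between the groups was far wider than the spread within either. Its probe sets both fell, by unequal amounts (-0.70 and -0.38), and 478 genes of the array fell further.

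MRPL11, a protein at the base of the stalk where translation factors dock, was at -0.26, -0.27 and -0.21 in knockdown arrays, against 0.25, 0.20 and 0.32 in control arrays. The groups did not overlap, and the log2 change was -0.50 (SE 0.042, adjusted p = 4.41e-05 in limma), with probe sets at -0.68 and -0.32. Of the other measured proteins of the stalk region, MRPL12 fell (-0.32, SE 0.037) and MRPL54 fell (-0.14, SE 0.035), while MRPL10, to which MRPL12 is attached, was at 0.013 and did not pass.

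MRPL39, a protein without a bacterial counterpart near the peptide exit, was at -0.20, -0.27 and -0.33 in knockdown arrays, against 0.24, 0.24 and 0.20 in control arrays. Knockdown array 1 lay nearest to the controls, still below all of them, and the log2 change was -0.49 (SE 0.043, adjusted p = 5.36e-05 in limma). Among 7 measured proteins of the exit region 3 fell, the other two being MRPL45 (-0.27, SE 0.036), which ties the ribosome to the inner membrane, and MRPL47 (-0.25, SE 0.044). MRPL44 (-0.16), MRPL22 (-0.096), MRPL24 (-0.041) and MRPL17 (0.011) did not pass.

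The 8 largest falls of the large subunit also held MRPL21, MRPL37, MRPL3, MRPL15 and MRPL2. MRPL21 was at -0.23, -0.22 and -0.20 in knockdown arrays, against 0.26, 0.20 and 0.20 in control arrays, a change of -0.43 (SE 0.036). MRPL37, specific to mitochondria, changed by -0.41 (SE 0.043). MRPL3 (-0.37, SE 0.038) and MRPL2 (-0.36, SE 0.054) have bacterial counterparts near the peptidyl transferase centre, where amino acids are joined. MRPL15 was at -0.061, -0.32 and -0.28 in knockdown arrays, against 0.14, 0.10 and 0.17 in control arrays. Its knockdown arrays were uneven, and its change was -0.36 with the largest standard error of all members (0.068). Adjusted p ran from 3.86e-05 to 0.00326 in limma over these 5 genes, each without overlap of the groups.

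MRPL33, a small protein with a bacterial counterpart, rose more than any other member. It was at 0.41, 0.35 and 0.26 in knockdown arrays, against -0.27, -0.30 and -0.27 in control arrays, a log2 change of 0.62 (SE 0.046, adjusted p = 2.33e-05 in limma), or 53.6% higher. All 3 of its probe sets rose (0.67, 0.65 and 0.55), and 442 genes of the array rose further. MRPL28, also with a bacterial counterpart, was at 0.13, 0.17 and 0.20 in knockdown arrays, against -0.14, -0.16 and -0.15 in control arrays. It rose by 0.32 (SE 0.035, adjusted p = 0.000189 in limma), and its 3 probe sets gave 0.34, 0.33 and 0.28.

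MRPL34 and MRPL41 rose less. MRPL34 was at 0.13, 0.092 and 0.078 in knockdown arrays, against -0.091, -0.095 and -0.078 in control arrays, and rose by 0.19 (SE 0.035, adjusted p = 0.00283 in limma). Its single probe set is an _s_at one, a kind that can match several transcripts, and ABHD8, a gene that overlaps it, rose by 0.42 (SE 0.054). MRPL34 was at 0.021 when scaled to the hybridization spike-ins and at 0.091 when scaled to the poly-A spike-ins, and passed in neither. MRPL41, also reported to bind the survival protein BCL2, was at 0.041, 0.029 and 0.19 in knockdown arrays, against -0.029, -0.11 and -0.087 in control arrays, and rose by 0.16 (SE 0.051, adjusted p = 0.0380 in limma). That call was lost without knockdown replicate 3 (0.11), control replicate 2 (0.14) or control replicate 3 (0.15), and the value was -0.0076 with hybridization spike-in centring. It was also lost with poly-A spike-in centring, array weights, the replicate block and the largest-variance probe set. The single MRPL41 probe set is an _x_at one, and did not pass in the fit of probe sets (adjusted p = 0.0612 in limma).

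**Figure D2:**
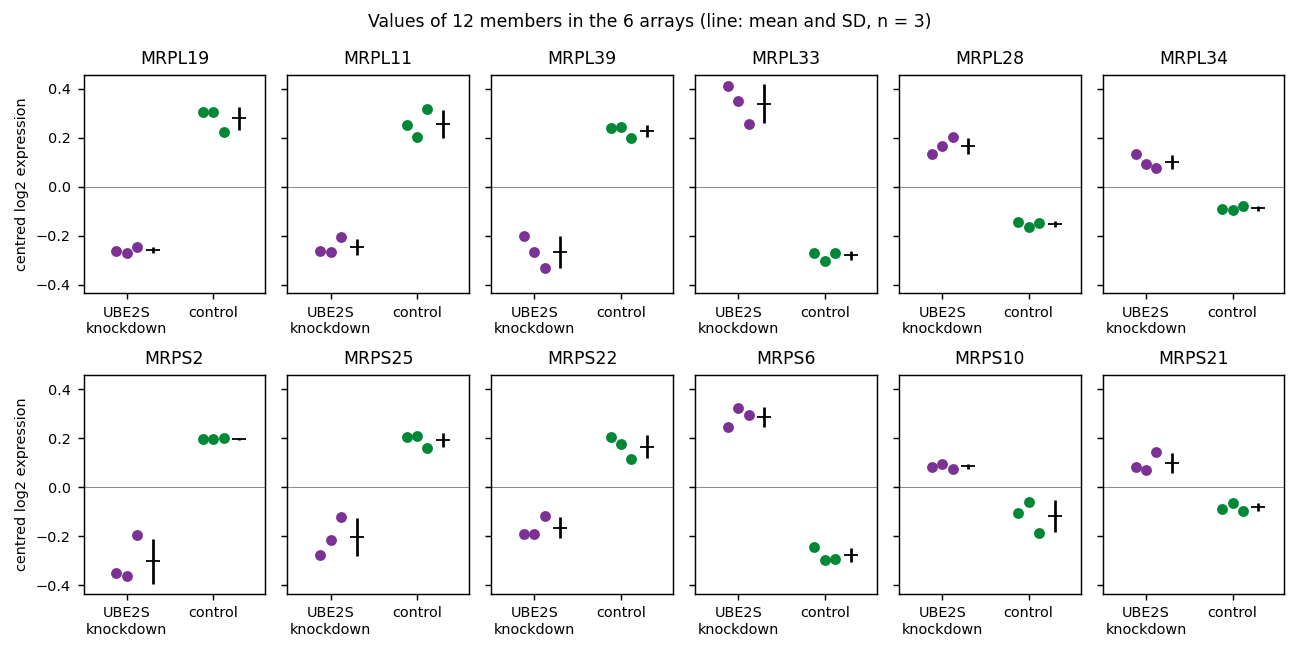
Centred log2 expression of 6 large subunit genes and 6 small subunit genes in each of the 3 knockdown and 3 control arrays, with the mean and SD beside the points. The groups do not overlap in any of the 12 genes, of which MRPL19, MRPL11, MRPL39, MRPS2, MRPS25 and MRPS22 are lower in knockdown and the other six higher.

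MRPS2, with a bacterial counterpart, had the largest fall of the small subunit. It was at -0.35, -0.36 and -0.20 in knockdown arrays, against 0.20, 0.20 and 0.20 in control arrays, a log2 change of -0.50 (SE 0.050, adjusted p = 0.000106 in limma), or 29.3% lower. Knockdown array 3 lay closer to the controls than the other two. The gene is read by 1 probe set.

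MRPS25, specific to mitochondria, was at -0.28, -0.21 and -0.12 in knockdown arrays, against 0.21, 0.21 and 0.16 in control arrays, a change of -0.40 (SE 0.047, adjusted p = 0.000271 in limma). Of its 5 probe sets 4 fell, between -0.57 and -0.36, and the fifth was at -0.065. MRPS22, specific to mitochondria and known from inherited mitochondrial disease, was at -0.19, -0.19 and -0.12 in knockdown arrays, against 0.21, 0.18 and 0.12 in control arrays, and fell by 0.33 on the log2 scale (SE 0.041, adjusted p = 0.000344 in limma). Its probe sets gave -0.34 and -0.33. MRPS35 (-0.29, SE 0.034) and MRPS27 (-0.24, SE 0.037), both specific to mitochondria, fell, as did each of their probe sets.

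MRPS12, counterpart of a bacterial protein that guards accuracy at the decoding centre, was at -0.11, -0.13 and -0.10 in knockdown arrays, against 0.15, 0.072 and 0.12 in control arrays. It fell by 0.23 on the log2 scale (SE 0.037, adjusted p = 0.00141 in limma), and each of its 4 probe sets fell. MRPS17 fell (-0.20, SE 0.043), with 2 of 4 probe sets falling (-0.42 and -0.32) and the other two at -0.040 and -0.024. Without probe sets of the _s_at and _x_at kinds MRPS17 was at -0.040 and did not pass.

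The 3 MRPS18 paralogs gave unlike values. MRPS18C, which takes the place of the bacterial protein in the small subunit, was at -0.21, -0.14 and -0.15 in knockdown arrays, against 0.15, 0.20 and 0.12 in control arrays, and fell by 0.32 on the log2 scale (SE 0.039, adjusted p = 0.000314 in limma). MRPS18A, the paralog in the large subunit, fell (-0.16, SE 0.038, adjusted p = 0.00910 in limma). MRPS18B was at -0.087 (SE 0.034, adjusted p = 0.0777 in limma) and did not pass, although its knockdown arrays lay below its control arrays. The differences among the paralogs were not tested. MRPS30, of the large subunit despite its symbol, was at -0.050, -0.054 and -0.040 in knockdown arrays, against 0.040, 0.14 and 0.069 in control arrays, a change of -0.13 (SE 0.039, adjusted p = 0.0274 in limma). That call was lost on leaving out any single array except control replicate 1, with values between -0.14 and -0.10.

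MRPS6, with a bacterial counterpart, rose most in the small subunit. It was at 0.24, 0.32 and 0.29 in knockdown arrays, against -0.24, -0.30 and -0.29 in control arrays. The log2 change was 0.56 (SE 0.038, adjusted p = 1.40e-05 in limma), or 47.9% higher. SLC5A3, a gene for an inositol transporter that overlaps MRPS6, rose by 0.71 (SE 0.052), and whether the single MRPS6 probe set reads transcripts of both was not tested.

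MRPS10 was at 0.084, 0.095 and 0.076 in knockdown arrays, against -0.11, -0.060 and -0.19 in control arrays, and rose by 0.20 (SE 0.042, adjusted p = 0.00524 in limma). MRPS21 was at 0.081, 0.072 and 0.14 in knockdown arrays, against -0.087, -0.064 and -0.096 in control arrays, and rose by 0.18 (SE 0.037, adjusted p = 0.00474 in limma). Both have bacterial counterparts, and in both the groups lay apart by less than in MRPS6. Of the 4 MRPS21 probe sets 2 rose, and the values ran from 0.051 to 0.42. With hybridization spike-in centring MRPS10 was at 0.035 and MRPS21 at 0.014, and with poly-A centring they were at 0.11 and 0.083, none of which passed. MRPL33, MRPL28 and MRPS6 rose under both spike-in centrings.

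Probe sets of 1 gene did not always move alike. At the level of probe sets 72 of 164 fell and 12 rose, against 17.4% and 19.5% of all 49293, and 36.9% in either direction. Of the 46 members with at least 2 probe sets, all fell in 18 and all rose in 2, MRPL28 and MRPL33, and in 0 members did a probe set fall and another rise. The widest spread was in MRPS16, where 1 probe set gave -0.62 and the other two 0.062 and 0.0025. MRPL43 ran from -0.60 to 0.018 over 6 probe sets, MRPL48 from -0.48 to 0.087 over 3, and MRPL9 from -0.35 to 0.19 over 4. MRPL9 did not pass as a gene (-0.049, adjusted p = 0.371 in limma), although 2 of its probe sets fell.

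**Figure D3:**
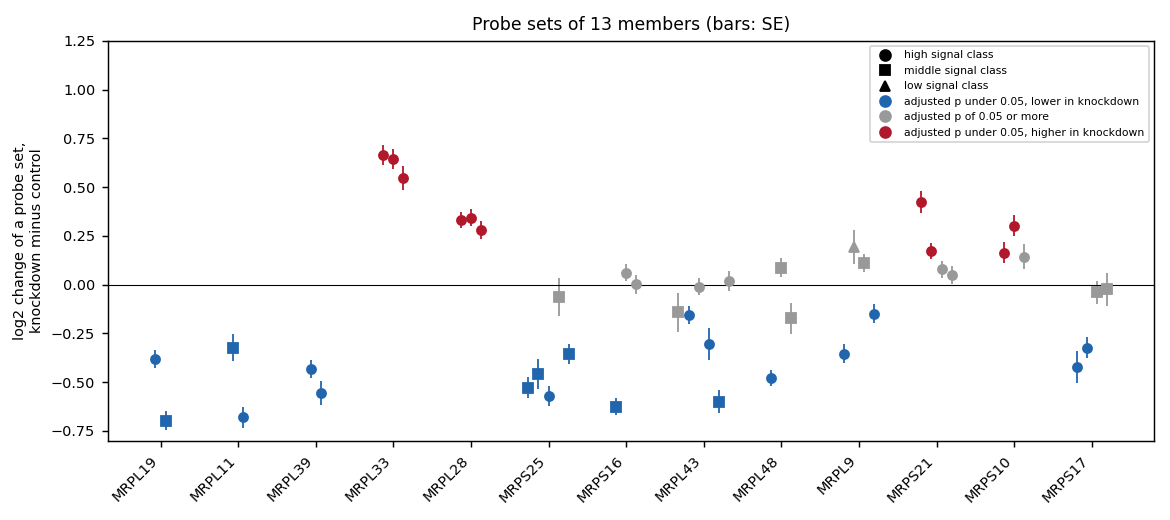
Log2 change (knockdown minus control) of each probe set of 13 members, with SE bars; marker shape gives the signal class and colour the adjusted p. Probe sets of MRPL33 and MRPL28 lie together, whereas those of MRPS16 (-0.62 to 0.062) and MRPL43 spread widely.

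The 29 members that did not pass the test had changes between -0.16 and 0.10, and their 95% confidence intervals lay within -0.29 and 0.19. In 12 of them all knockdown arrays lay below all control arrays, and in MRPS23 alone they lay above (0.10, adjusted p = 0.0506 in limma). Over all genes, passing or not, these shares were 23.9% and 26.2%. The shares among all genes that did not pass were not counted, so the 12 cannot be set against them.

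Neighbours that start head to head with a member were set beside it. Among the RefSeq promoters, 21 members had a gene on the other strand starting within 1000 bases upstream, and 17 of these neighbours were measured. Of 9 members that fell and had a measured neighbour, the neighbour fell in 2, rose in 2 and did not pass in 5. Over all genes 18.6% fell and 21.4% rose, shares close to those of these neighbours. Beside members that did not pass, the neighbour fell in 1, rose in 1 and did not pass in 6. TCP1, a chaperonin subunit, fell (-0.45, SE 0.034) beside MRPL18 (-0.23, SE 0.036), and MITD1 fell (-0.28, SE 0.048) beside MRPL30 (-0.21, SE 0.040). Of the MRPL30 probe sets only that of the middle class fell (-0.39). Those of the high class gave -0.12 and -0.10 and did not pass, and the MRPL30 call was lost with the brightest class alone. PIERCE1 rose (0.25, SE 0.045) beside MRPS2, and the zinc finger gene ZNF189 rose (0.28, SE 0.042) beside MRPL50, which fell (-0.27, SE 0.051). MRPL46 (-0.099) and MRPS11 (-0.050) start 320 bases apart, and neither passed.

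Other genes of mitochondrial translation were counted in the same fit. Of 4 measured mitoribosomal proteins with other symbols, PTCD3 fell (-0.50, SE 0.046) and CHCHD1 fell (-0.19, SE 0.043), while DAP3 (0.046) and GADD45GIP1 (-0.044) did not pass. Among 29 assembly factors and modifiers of mitochondrial ribosomal RNA 16 fell and 3 rose, with a median of -0.15. METTL17, which assists assembly of the small subunit, fell (-0.83, SE 0.042), as did ERAL1, a chaperone of its ribosomal RNA (-0.77, SE 0.044), and the RNA methyltransferase TRMT61B (-0.53, SE 0.071). RPUSD4, a pseudouridine synthase, rose by 1.15 (SE 0.056, adjusted p = 2.92e-06 in limma), the RNA helicase DHX30 by 0.33 and NGRN by 0.26, of which NGRN did not pass with hybridization spike-in centring (0.097).

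Of 15 mitochondrial translation factors 8 fell and 1 rose, with a median of -0.17. SLIRP (-0.41) and LRPPRC (-0.38), partners that stabilize mitochondrial messenger RNAs, fell, as did the elongation factor GFM1 (-0.29), and MTRFR, a factor that rescues stalled ribosomes, rose by 0.30 (SE 0.033). Among 19 genes of mitochondrial tRNA charging 9 fell and 1 rose, with a median of -0.098. The tyrosyl-tRNA synthetase YARS2 fell (-0.58), as did GATC, a subunit of the amidotransferase that makes glutaminyl-tRNA (-0.56), and the methionyl-tRNA synthetase MARS2 (-0.37). The isoleucyl-tRNA synthetase IARS2 rose by 0.13. That call was lost without knockdown replicate 2, control replicate 2 or control replicate 3 (0.12 to 0.13), and the value was -0.035 with hybridization spike-in centring.

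Of 11 genes of mitochondrial transcription and DNA maintenance 6 fell and 1 rose, with a median of -0.18. The helicase TWNK fell (-0.63), as did TFAM (-0.57) and TFB2M (-0.56), both needed to start mitochondrial transcription. The RNA polymerase POLRMT rose by 0.15 (adjusted p = 0.0465 in limma), a call lost without any single array except knockdown replicate 1 (0.11 to 0.17), and was at -0.013 with hybridization spike-in centring. Among 9 factors known to act on mitochondrial biogenesis 3 fell and 1 rose, with a median of -0.068. MYC fell (-1.11, SE 0.072), as did the coactivator PPRC1 (-0.35) and the nuclear receptor ESRRA (-0.19). GABPA (-0.11), NRF1 (-0.068) and YY1 (-0.026), whose motifs were searched above, did not pass. TFEB, a regulator of lysosomal genes, rose by 0.11 (adjusted p = 0.0494 in limma), a call lost without each of the 6 arrays in turn (0.089 to 0.13), and was at -0.055 with hybridization spike-in centring.

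In the cytosolic ribosome 51 of 74 measured protein genes fell (68.9%) and 1 rose, with a median of -0.17, where the mitochondrial set had 51.4% falls and 9.46% rises. The cytosolic set ran from -1.76 for RPL27A to 0.25 for RPL39L, which was at 0.078 and did not pass with hybridization spike-in centring. RPL39 itself fell (-0.15, SE 0.033). Of 24 TOMM and TIMM genes, for the machinery that imports mitochondrial ribosomal proteins among others, 13 fell (54.2%) and 1 rose, with a median of -0.16. The largest fall was that of TOMM5 (-2.15), and the rise was that of TIMM8B (0.21), which was at 0.040 and did not pass with hybridization spike-in centring. No test was made of the differences between these sets.

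**Figure D4:**
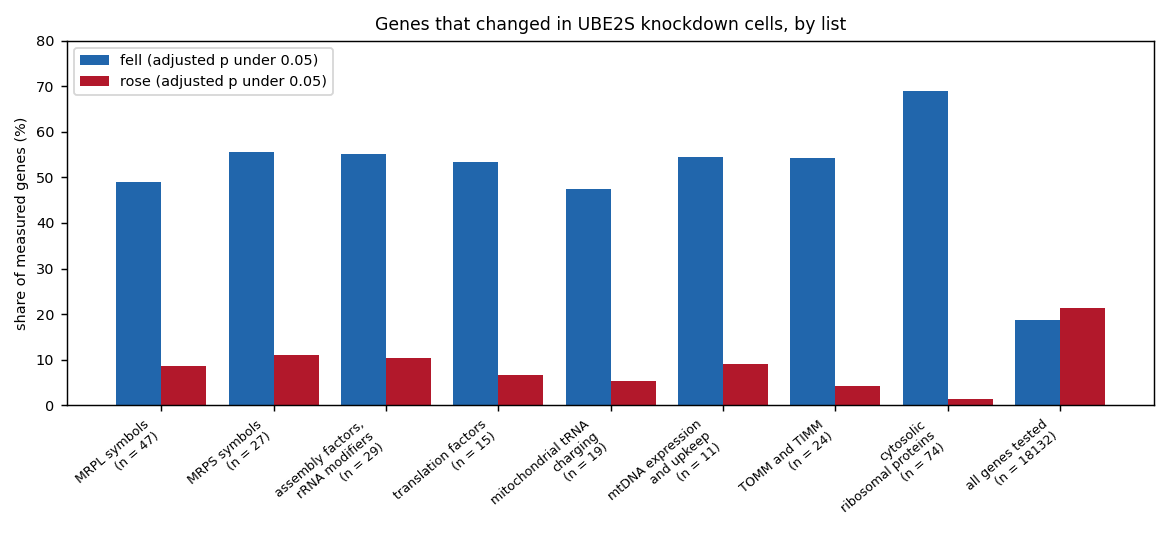
Share of the measured genes of each list (percent) that fell or rose at an adjusted p under 0.05, beside all genes tested. Falls made up 48.9% of MRPL and 55.6% of MRPS genes, against 18.6% of all genes.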

How the data were processed

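Total RNA of 3 knockdown and 3 control A375 samples was labelled with biotin and read on Affymetrix arrays, per the labels' protocols. The deposited values are log2 expression. The submitters' processing notes name limma, RMA and affy, without versions or order, and the base of the logarithm is that of RMA. A median of 0 for every probe set (largest absolute value 4.85e-07) shows a centring that no source used here describes. Signal over background is unknown, and between-array normalization hides a change of all transcripts in 1 direction. As no separate cultures are named, p-values measure the spread between these samples, which may be technical.

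Probe sets with 1 symbol in the array annotation (44988 of 49293, besides 102 controls) were averaged per gene. All 74 members matched GRCh38.p14 by gene number. Genes were tested, knockdown minus control, with limma 3.58.1 (lmFit, eBayes) under R 4.3.3, two-sided, without filter or block, and p-values were adjusted over all genes (Benjamini-Hochberg). The code was checked on simulated data. The members and lists were chosen with earlier results of these data known, and cytosolic ribosomal and import genes were taken by symbol. Named by rule were UBE2S, the 8 largest falls and up to 5 largest rises per subunit, the MRPS18 paralogs, MRPS30 and up to 3 genes per direction in each list. Other genes named were chosen after their values were seen. MRPS36 is not analysed here. Signal classes come from the rounding step of single-precision values, within 0.15 of a step, and can be misread. Same-numbered samples did not deviate together from their group means (correlations over genes of -0.030, -0.016 and -0.10). Alternatives were other probe set choices, scalings, weights, variance models, the replicate block, a fold threshold and leaving out each array. Counting MRPS30 and MRPS18A in the large subunit was added after seeing the data.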

Additional observations from a re-analysis of the deposited data

Results flagged for a closer look

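Probe sets that the array annotation lists under several gene entries were not members, and 3 of 4 with a mitoribosomal symbol differed between the groups. That of MRPS24 and its readthrough URGCP-MRPS24 was at -0.27, -0.26 and -0.21 in knockdown arrays, against 0.27, 0.25 and 0.21 in control arrays, a log2 change of -0.49 (SE 0.045, adjusted p = 9.14e-05 in limma). That of MRPL23 was at 0.048, 0.092 and 0.13 in knockdown arrays, against -0.050, -0.080 and -0.048 in control arrays, a change of 0.15 (SE 0.045, adjusted p = 0.0320 in limma). For CCDC142 and MRPL53, 1 probe set was at 0.083, 0.11 and 0.18 in knockdown arrays, against -0.083, -0.12 and -0.12 in control arrays, a change of 0.23 (SE 0.047, adjusted p = 0.00511 in limma). The other CCDC142 and MRPL53 probe set gave -0.023 (SE 0.067, adjusted p = 0.832 in limma) and did not pass. Which of the listed genes each probe set measured was not tested.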

How the results depend on the processing

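Counts are given in the order large subunit falls, large subunit rises, small subunit falls and small subunit rises, reported as 23, 4, 15 and 3. Hybridization spike-in centring gave 42, 2, 23 and 1, where 50.7% of all genes fell and 9.73% rose. Poly-A spike-in centring gave 36, 2, 21 and 1, where 34.7% of all genes fell and 13.7% rose. Probe sets in place of genes gave 44, 7, 28 and 5. Requiring at least 1.2-fold as well gave 14, 2, 5 and 1. Leaving out probe sets of the _s_at and _x_at kinds gave 23, 2, 14 and 3, over fewer genes. The replicate block gave 23, 3, 14 and 3, although same-numbered samples share no more than a number here, and MRPL41 and MRPS30 lost their calls with it. Without each array in turn the counts lay between 23 and 24, 3 and 4, 11 and 14, and 3 and 3. MRPS30 and MRPS18A taken as large subunit proteins gave 25, 4, 13 and 3. With the largest-variance probe set, the brightest class, array median centring, array weights, robust eBayes or no genes of the lowest class, each count stayed within 1.5 times. Single calls still moved. With the brightest class MRPL30, MRPL43, MRPS5 and MRPS16 lost their calls, while MRPL4, MRPL9, MRPL20 and MRPS31 gained one. Of 45 called members 39 kept their call without each array in turn, the others being MRPL41, MRPS5, MRPS14, MRPS26, MRPS30 and MRPS34. In all settings fitted to genes, 31 kept it, 28 falls and the rises of MRPL28, MRPL33 and MRPS6. MRPL41 reversed to -0.0076 with hybridization spike-ins. The number of arrays limits the precision. Why the counts differed between settings was not tested.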
